A study of Mus musculus with 10 samples.

Results

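Histone variants that are made outside S phase were followed by ribosome profiling (Ribo-seq), which counts the mRNA fragments protected by ribosomes (footprints), in the developing mouse neocortex. The 8 genes were picked by symbol, with no measured value in the rule: H2afz and H2afv (H2A.Z), H2afx (H2A.X), H2afy and H2afy2 (macroH2A), H3f3a and H3f3b (H3.3) and H1f0 (the linker histone H1.0). They are 8 of the 22373 genes in the table, and all 8 passed the filter on low counts that left 13484 genes. Neocortex was dissected from wild-type CD-1 embryos of timed pregnancies at 4 embryonic stages named by days after mating (E12.5, E14, E15.5 and E17) and from pups on the day of birth (P0). Each stage has 2 libraries, each from a pooled lysate with both sexes, so n = 2 everywhere and a library is a pool rather than an animal. No library carries a transgene or drug treatment, and all were digested with RNase T1 and RNase A.

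Nucleosomes wrap DNA around H2A, H2B, H3 and H4, and H1 binds the linker between them. Most histone protein comes from clustered genes, here those whose symbol starts with Hist, which are transcribed in S phase and whose mRNAs end in a stem-loop instead of a poly(A) tail. The variant genes lie outside those clusters and most make polyadenylated mRNA through the whole cell cycle, so a neuron that has left the cycle can still replace nucleosomes. H2A.Z marks promoters and enhancers, H2A.X is phosphorylated beside DNA breaks, macroH2A carries a large globular domain and is found in repressed chromatin, H3.3 replaces H3 at active genes and at heterochromatic repeats, and H1.0 is known to accumulate in cells that stop dividing.

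H2A.Z and H3.3 are each encoded by a pair of separate genes, and the regions just before their starts are shown because the genes of a pair share a protein, or nearly so, while each has its own promoter. The 250 bases before the RefSeq start (build GRCm38.p6, 5′ to 3′ on the strand of the gene, transcribed sequence left out) are chr3:137864237-137864486 on the + strand for H2afz (now H2az1), chr11:6444444-6444693 on the - strand for H2afv (H2az2), chr1:180813606-180813855 on the - strand for H3f3a and chr11:116024505-116024754 on the - strand for H3f3b. Capitals mark matches on either strand to CCAAT, the CCAAT box (read ATTGG on the opposite strand), to TTTGAA, an element of cell cycle promoters (read TTCAAA on the opposite strand), and to TATAAA, the TATA box (read TTTATA on the opposite strand).
H2afz: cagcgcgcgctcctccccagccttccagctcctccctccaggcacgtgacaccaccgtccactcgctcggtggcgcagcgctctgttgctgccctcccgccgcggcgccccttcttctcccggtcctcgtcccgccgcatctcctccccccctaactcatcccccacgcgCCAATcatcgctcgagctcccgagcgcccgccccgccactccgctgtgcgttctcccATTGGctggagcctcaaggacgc
H2afv: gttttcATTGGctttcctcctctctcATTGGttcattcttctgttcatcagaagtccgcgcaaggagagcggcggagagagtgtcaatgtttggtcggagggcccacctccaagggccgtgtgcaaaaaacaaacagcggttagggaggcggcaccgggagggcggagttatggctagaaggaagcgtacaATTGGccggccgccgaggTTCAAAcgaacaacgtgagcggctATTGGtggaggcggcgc
H3f3a: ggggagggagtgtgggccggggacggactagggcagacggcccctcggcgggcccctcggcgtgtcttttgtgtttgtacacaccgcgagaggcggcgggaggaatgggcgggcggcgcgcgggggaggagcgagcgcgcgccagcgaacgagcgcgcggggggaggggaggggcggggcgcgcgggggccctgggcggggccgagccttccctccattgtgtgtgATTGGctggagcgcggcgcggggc
H3f3b: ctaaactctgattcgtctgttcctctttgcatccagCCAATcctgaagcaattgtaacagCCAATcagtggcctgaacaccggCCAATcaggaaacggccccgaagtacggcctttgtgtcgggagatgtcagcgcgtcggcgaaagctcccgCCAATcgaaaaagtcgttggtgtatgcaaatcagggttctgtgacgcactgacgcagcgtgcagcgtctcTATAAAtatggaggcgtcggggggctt
No marked match overlaps another. The window of H2afz holds 2 CCAAT matches and that of H2afv 4, with 1 TTTGAA match. The window of H3f3a holds 1 CCAAT match and that of H3f3b 4, with 1 TATAAA match. Of the 32851 windows of this length, 33.8% hold a CCAAT match, 10.1% hold at least 2 and 0.840% hold at least 4, while 16.0% hold TTTGAA and 12.4% hold TATAAA. Windows were found for 7 of the 8 genes, H2afx being the exception. Those of H2afy, H2afy2 and H1f0 have none of these letters, which says nothing about the factors that bind there. Among the 59 Hist genes with a window, out of 66, 48 hold CCAAT, 24 hold TTTGAA and 29 hold TATAAA.

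Libraries held between 7544404 and 36129988 counts, the fewest in P0 replicate 1. The SD of the log2 ratio between the 2 replicates, over 4559 genes, was 0.125 to 0.216 at the embryonic stages and 0.532 at P0, so values at P0 are the least certain. Hist genes took 34.0% to 38.5% of all counts at E12.5 and 6.32% to 9.83% at P0, and levels are therefore given as CPM, counts relative to a library size scaled by TMM, which sets the median gene near no change. The 8 proliferation markers summed to 1032 to 1049 CPM for E12.5, 733 to 740 for E14, 377 to 380 for E15.5, 224 to 238 for E17 and 107 to 125 for P0, while the 8 neuron markers went from 2173 to 2224 CPM up to 8308 to 9514. Radial glia markers (8 genes) summed to between 1451 and 2493 CPM, a sum carried by Fabp7 (969 CPM at E12.5 and 1486 at P0), while 6 of the 8 fell over the span, Vim among them (724 to 96.2 CPM). Intermediate progenitor markers (4) went from 178 to 214 CPM at E12.5 to 10.2 to 15.1 at P0, and neocortex markers (6) between 440 and 869. Tissue next to the neocortex also changed between stages: choroid plexus markers (5) summed to 276 to 329 CPM at E12.5, 1118 to 1125 at E14 and 5.37 to 14.4 later, and meninges markers (5) went from 59.4 to 98.9 CPM before E15.5 to 2.28 to 6.57 from then on. Ganglionic eminence markers (7) rose from 14.3 to 168 CPM. Most of that sum at P0 was Gad1 (1.93 CPM at E12.5 and 52.6 at P0) and Lhx6 (7.64 and 71.6), while Nkx2-1 stood at 0.211 and 0.692. Whether the rise lies in neighboring tissue or in cells inside the neocortex was not tested. Red blood cell markers (6) fell from 6449 to 6712 CPM to 737 to 956. No marker gene was at 0 over a whole stage. Several of these sums changed over the span in which variant genes fell. Proliferation and choroid plexus markers also changed from E12.5 to E14, where 0.638% of all genes and no variant gene were called. Both E14 libraries of H2afv, H2afx and H2afy still lay below both E12.5 libraries, and those of the other variant genes overlapped. The part of the marker sums in the results was not tested. In bulk tissue fewer cells of a type and less mRNA per cell cannot be told apart.

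The 8 genes separated into 5 that fell between E12.5 and P0 and 3 that passed no test. H2afz, H2afv, H2afx, H2afy and H1f0 were lower at P0, as were 32% of all genes tested (limma-voom, Benjamini-Hochberg adjusted p under 0.05 over all genes, with a minimum fold). The median log2 difference of the 8 genes was -1.69, against -0.01 over all genes. H3f3a, H3f3b and H2afy2 were not called in that comparison or in any step between neighboring stages. Across the 5 stages the moderated F test passed the same 5 of 8 genes, close to the 63.8% of all genes that passed. From E12.5 to P0, 8371 of 13484 genes were called in either direction. The number of variant genes called was thus near the share over all genes, while all 5 were lower. Total counts in place of TMM moved the median of all genes from -0.01 to 0.51 and the part of called genes that were higher from 48.5% to 72.0%. With that scaling H2afy2 (0.59), H3f3a (0.49) and H3f3b (0.71) were called higher at P0. Relative to that median they were at 0.08, -0.02 and 0.19 under either scaling, and the other 5 genes were lower under both.

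Calls were concentrated at the steps ending at E15.5 and at P0. From E12.5 to E14 no member was called, by limma-voom, edgeR or DESeq2, none had an unadjusted p under 0.05, and 0.638% of all genes were called. From E14 to E15.5 the same 5 genes were lower, against 19.6% of all genes. From E15.5 to E17 only H2afx was called lower, where 3.43% of all genes were, and 4 of the 8 had an unadjusted p under 0.05 with intervals below 0 (H2afz, H2afv, H2afx and H2afy). From E17 to P0 the 5 genes were lower again, against 11.1% of all genes; a fit on only these 2 stages called none of them and no gene at all, with 5 of the 8 at an unadjusted p under 0.05. The median of the 8 genes was -0.03, -0.43, -0.19 and -0.90 over these steps, and the all-gene median stayed within -0.02 and 0.00.

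**Figure D1:**
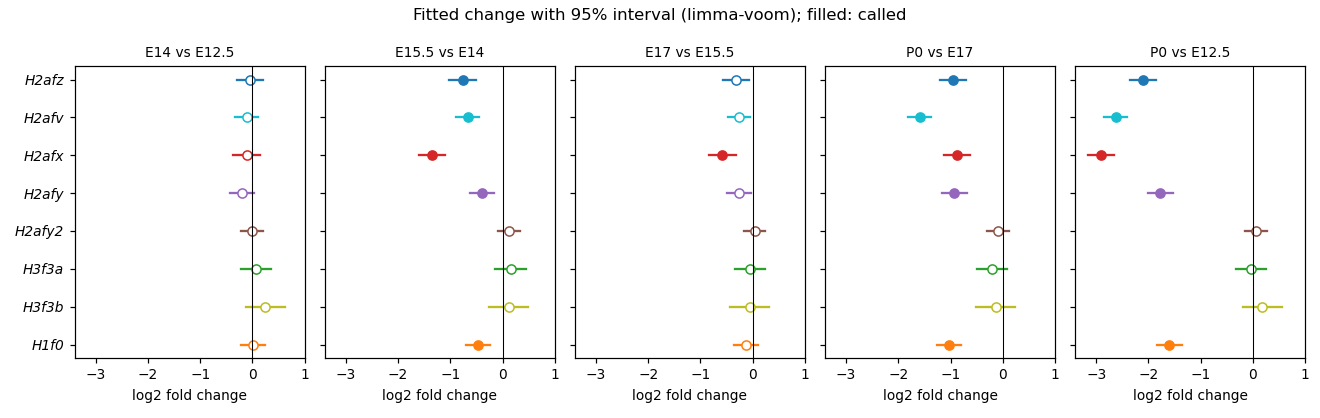
Fitted log2 fold change (x axis, with 95% interval as bars) of each variant gene (y axis) in 5 comparisons of stages, n = 2 libraries per stage. Filled circles were called; the same 5 genes are filled at E15.5 vs E14, at P0 vs E17 and at P0 vs E12.5, and H2afx alone at E17 vs E15.5, while the intervals of H2afy2, H3f3a and H3f3b cross 0 in every panel.

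H2A.Z is the variant that SRCAP and p400-TIP60 complexes exchange into nucleosomes. H2afz (ENSMUSG00000037894), its more heavily counted gene, stood at 3878 and 4005 CPM in the E12.5 libraries, 3544 and 4081 in those of E14, 2154 and 2327 in those of E15.5, 1807 and 1768 in those of E17, and 866 and 985 in those of P0. The libraries of E12.5 and E14 overlapped, and from there on each stage lay below the one before it. The log2 difference was -0.76 ± 0.11 (SE) from E14 to E15.5 (adjusted p = 0.00121, limma-voom) and -0.95 ± 0.11 from E17 to P0 (adjusted p = 0.00186, limma-voom). Over the whole span it was 4.27-fold lower. The step between them, -0.33 ± 0.11, did not pass (adjusted p = 0.105, limma-voom).

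H2afv (ENSMUSG00000041126) stood at 532 and 523 CPM in the E12.5 libraries, 496 and 483 in those of E14, 304 and 313 in those of E15.5, 271 and 244 in those of E17, and 90.9 and 81.1 in those of P0. It was 6.17-fold lower at P0 than at E12.5 (log2 difference -2.62 ± 0.10 SE). Its step from E17 to P0, -1.59 ± 0.10 (adjusted p = 0.000258, limma-voom), was larger than its step from E14 to E15.5, -0.67 ± 0.10 (adjusted p = 0.00121, limma-voom), although the difference between the steps was not tested. H2afv took 11.8% ± 0.361 (SD, n = 2) of the counts of the H2A.Z pair at the earliest stage, 11.4% ± 1.20 for E14, 12.1% ± 0.379 for E15.5, 12.6% ± 0.646 for E17 and 8.55% ± 1.34 for P0. Both P0 libraries, at 7.61% and 9.50%, lay below the other 8, but the difference between stages did not pass the exact permutation test over libraries (p = 0.0624, adjusted over the 3 pairs 0.0937). With replicate number as a block the unadjusted exact p was 0.0333, but whether replicate numbers pair the libraries cannot be told. The Spearman correlation of the share with stage order was -0.20 (p = 0.602, exact permutation test).

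H2A.X is the variant whose phosphorylated form recruits repair proteins to DNA breaks. H2afx (ENSMUSG00000049932) stood at 2859 and 3044 CPM in the E12.5 libraries, 2802 and 2656 in those of E14, 1097 and 1046 in those of E15.5, 768 and 671 in those of E17, and 420 and 367 in those of P0. It fell most of the 8, 7.50-fold from E12.5 to P0 (log2 difference -2.91 ± 0.11 SE), and was the only one called in 3 neighboring steps. These were -1.35 ± 0.11 from E14 to E15.5 (adjusted p = 0.000122, limma-voom), -0.58 ± 0.11 from E15.5 to E17 (adjusted p = 0.0198, limma-voom) and -0.87 ± 0.11 from E17 to P0 (adjusted p = 0.00234, limma-voom). Without any 1 of the 4 libraries of those stages, the step from E15.5 to E17 was no longer called (adjusted p 0.0800 to 0.181), with a log2 difference of -0.67 to -0.48.

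The counts of H2afx kept a nearly fixed ratio to those of the clustered H2A genes. They were 2.71% to 3.17% of the summed Hist H2A counts over the 10 libraries, a 1.17-fold range, while the same percentage varied 2.22-fold for H2afz, 2.20-fold for H2afv, 2.86-fold for H2afy and 9.50-fold for H2afy2. H2afj, a further H2A gene outside the clusters, varied 1.43-fold. The coding sequence of H2afx is close to that of clustered H2A genes and its mRNA is also made in a stem-loop form, and reads that match several genes were kept in the alignment. The level of H2afx is uncertain for that reason, and how far its counts are reads shared with Hist genes was not tested.

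The macroH2A genes went apart. H2afy (ENSMUSG00000015937, macroH2A1) stood at 266 and 255 CPM in the E12.5 libraries, 228 and 228 in those of E14, 178 and 170 in those of E15.5, 151 and 139 in those of E17, and 70.3 and 81.7 in those of P0. It was 3.41-fold lower at P0 than at E12.5 (log2 difference -1.77 ± 0.10 SE), with -0.39 ± 0.10 from E14 to E15.5 (adjusted p = 0.0170, limma-voom) and -0.92 ± 0.10 from E17 to P0 (adjusted p = 0.00176, limma-voom). The earlier step was not called without any 1 of the 4 libraries compared (adjusted p 0.0711 to 0.111), with a log2 difference of -0.42 to -0.35, nor with total counts in place of TMM (-0.09). H2afy2 (ENSMUSG00000020086, macroH2A2) stood at 67.3 and 70.3 CPM in the E12.5 libraries, 69.2 and 67.6 in those of E14, 75.0 and 74.1 in those of E15.5, 76.4 and 77.0 in those of E17, and 68.1 and 75.5 in those of P0. Its highest library was 1.14-fold above its lowest, and its log2 difference from E12.5 to P0 was 0.07 with a 95% interval of -0.14 to 0.27 (adjusted p = 0.547, limma-voom).

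As a share of the macroH2A pair, a ratio within each library that does not depend on scaling, H2afy2 took 20.9% ± 1.05 (SD, n = 2) for E12.5, 23.1% ± 0.325 for E14, 30.0% ± 0.566 for E15.5, 34.6% ± 1.51 for E17 and 48.6% ± 0.850 for P0. The 2 libraries of each stage lay above those of every earlier stage. The share differed between stages with p = 0.00106 by the exact permutation test, the smallest p that 945 arrangements of the libraries allow (adjusted over the 3 pairs 0.00317). The log2 ratio of H2afy2 to H2afy was 1.84 higher at P0 than at E12.5. Levels of different genes are not compared per length here, so a share near an even split is a share of footprints and not of protein.

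H3.3 differs from the clustered H3 proteins at a few residues and is deposited by HIRA and by DAXX-ATRX. H3f3a (ENSMUSG00000060743) stood at 4382 and 5283 CPM in the E12.5 libraries, 5162 and 4916 in those of E14, 5857 and 5361 in those of E15.5, 5413 and 5396 in those of E17, and 5092 and 4293 in those of P0. H3f3b (ENSMUSG00000016559), which encodes the same protein, stood at 1753 and 2175 CPM in the E12.5 libraries, 2467 and 2168 in those of E14, 2567 and 2472 in those of E15.5, 2473 and 2373 in those of E17, and 2557 and 1891 in those of P0. The P0 libraries of both genes overlapped those of E12.5. The log2 difference from E12.5 to P0 was -0.04 for H3f3a (95% interval -0.32 to 0.25; adjusted p = 0.820, limma-voom) and 0.18 for H3f3b (-0.19 to 0.55; adjusted p = 0.359, limma-voom). Changes inside these intervals are not excluded by these libraries.

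Without P0 replicate 2, H3f3b was called higher at P0 than at E12.5, by 0.42 (adjusted p = 0.0236, limma-voom). H3f3b took 28.9% ± 0.418 (SD, n = 2) of the counts of the H3.3 pair for E12.5, 31.5% ± 1.22 for E14, 31.0% ± 0.767 for E15.5, 31.0% ± 0.577 for E17 and 32% ± 2.01 for P0. The lowest 2 libraries were those of E12.5, and the difference between stages did not pass the exact permutation test (p = 0.206). The Spearman correlation of the share with stage order was 0.49 (p = 0.160, exact permutation test). At P0 the share was 33.4% in replicate 1 and 30.6% in replicate 2.

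H1f0 (ENSMUSG00000096210) stood at 264 and 238 CPM in the E12.5 libraries, 253 and 254 in those of E14, 183 and 184 in those of E15.5, 175 and 162 in those of E17, and 76.9 and 87.8 in those of P0. E12.5 and E14 overlapped, and the later stages stepped down. It was 3.03-fold lower at P0 than at E12.5 (log2 difference -1.60 ± 0.10 SE), with -0.47 ± 0.10 from E14 to E15.5 (adjusted p = 0.00774, limma-voom) and -1.03 ± 0.10 from E17 to P0 (adjusted p = 0.00125, limma-voom). Without either E15.5 library the earlier step was not called (adjusted p 0.0517 and 0.0576, log2 difference -0.47 and -0.46), nor was it with total counts in place of TMM (-0.17).

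**Figure D2:**
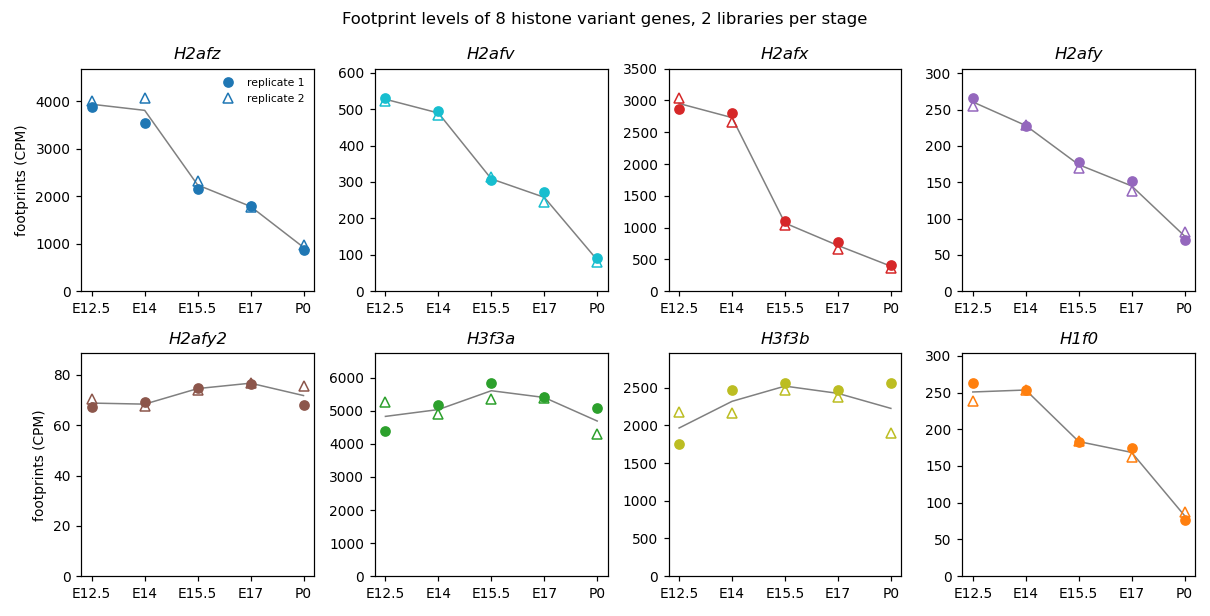
Footprint level in CPM (y axis, linear and starting at 0, a separate scale per gene) of the 8 variant genes at 5 stages (x axis). Filled circles are replicate 1, open triangles replicate 2 and the line joins stage means; H2afz, H2afv, H2afx, H2afy and H1f0 step down at E15.5 and again at P0, while H2afy2 stays between 67.3 and 77.0 CPM.

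The clustered genes fell further than most of the variants. All 66 Hist genes were lower at P0 than at E12.5, with a median log2 difference of -2.87 and a range of -3.60 to -1.33. H2afx, at -2.91, was the only variant gene past that median, but its counts may include reads shared with Hist genes, which was not tested. At the step from E14 to E15.5, 64 of 66 Hist genes were lower, with a median of -1.24. From E17 to P0, 39 were lower, with a median of -0.86, and H2afz, H2afv, H2afx, H2afy and H1f0 each lay below that median.

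Set against the clustered genes of the same class, the H3.3 pair gained most. H3f3a and H3f3b together made up 7.59% ± 0.574 (SD, n = 2) of their counts and those of Hist H3 genes for E12.5, 8.95% ± 0.254 for E14, 20.7% ± 0.304 for E15.5, 28.2% ± 0.982 for E17 and 38.3% ± 9.04 for P0, where the libraries stood at 31.9% and 44.7%. The 5 H2A variant genes went from 7.21% ± 0.0940 of H2A counts at E12.5 to 10.2% ± 0.573 at E15.5 and 11.3% ± 0.600 at E17, and were at 10.5% ± 2.23 at P0. H1f0 went from 2.98% ± 0.340 of H1 counts to 5.39% ± 0.218 for E15.5, 6.46% ± 0.0895 for E17 and 4.53% ± 1.54 for P0. These class shares are descriptions with no test. They are not proportions of transcripts, because reads that match several Hist genes appear to be counted for each: Hist1h2bq and Hist1h2br differed by at most 6 counts in any library, with at least 28951 counts each. With the mean count per Hist gene in place of the sum, the H3.3 share went from 49.6% to 87.8%, so its size depends on this choice and its direction does not.

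**Figure D3:**
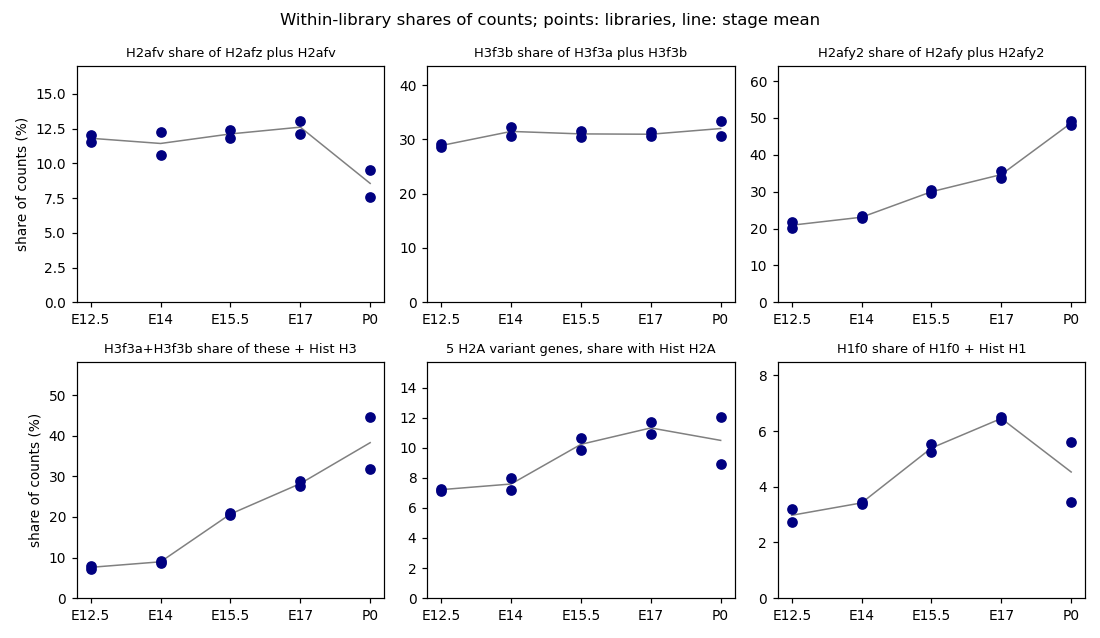
Within-library shares of counts in percent (y axis, starting at 0) by stage (x axis), with points for libraries and lines through stage means. The top row gives shares within the H2A.Z, H3.3 and macroH2A pairs, where the H2afy2 share climbs from 20.9% to 48.6%; the bottom row gives variant shares of H3, H2A and H1 counts, where the H3.3 share climbs from 7.59% to 38.3%.

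The genes that deposit, exchange or read these histones were taken from lists. Of each list the largest called rise and fall from E12.5 to P0 were named by rule, and any other gene below was named after its values were seen. All values are log2 differences at P0 relative to E12.5 (limma-voom), and at that span 30.1% of all genes were higher and 32% lower. The lists are small, and their counts are descriptions. Of the 3 other variant genes all fell, with values of -3.08 ± 0.17 (SE) for Cenpa, the centromeric H3, -3.04 ± 0.10 for H2afj and -0.84 ± 0.21 for H1fx. From E14 to E15.5 the same 3 were lower. The counts of H2afj varied 1.43-fold relative to the summed Hist H2A counts. How far they are reads shared with Hist genes was not tested.

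Of 7 H3.3 deposition genes 1 was higher and 3 were lower, with a median of 0.10. Cabin1, a HIRA complex subunit, rose by 0.47 ± 0.15, and Ubn2, another, was lower (-1.35 ± 0.14). Ubn1 and Asf1a, the chaperone that hands H3-H4 to HIRA, were also lower, at -0.81 ± 0.16 and -1.02 ± 0.13. Hira, Daxx and Atrx passed no threshold, with 0.37, 0.10 and 0.48.

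Of 14 H2A.Z exchange genes 4 rose and 3 fell, with a median of -0.01, and none was called at the 3 embryonic steps. Those that rose were Epc1 (1.08 ± 0.11), Znhit1 (0.65 ± 0.15), Dmap1 (0.48 ± 0.13) and Kat5, the acetyltransferase of the p400-TIP60 complex (0.39 ± 0.11). The ATPases Ruvbl1 and Ruvbl2 were lower (-0.57 ± 0.10 and -0.65 ± 0.12), as was Anp32e, the chaperone that removes H2A.Z (-1.85 ± 0.41), whose P0 libraries averaged 356 CPM with an SD of 230. The ATPases that drive exchange, Srcap and Ep400, were not called (0.04 and 0.15).

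Among H2A.X kinases and readers, 5 of 7 were lower and none higher, with a median of -0.92. They were the kinases Atm (-1.17 ± 0.21), Atr (-1.13 ± 0.18) and Prkdc (-0.81 ± 0.22), the reader Mdc1 (-1.42 ± 0.14) and the ubiquitin ligase Rnf168 (-0.92 ± 0.25). At single steps 1 of them, Mdc1, was called lower, from E14 to E15.5. Counts of these genes were low. The smallest library, P0 replicate 1, held 11 footprints of Atm, 12 of Atr, 6 of Prkdc, 23 of Mdc1 and 41 of Rnf168.

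All 10 genes of replication-coupled deposition and histone mRNA processing were called, 8 lower and 2 higher, with a median of -1.31. The H3-H4 chaperone Asf1b changed most (-4.13 ± 0.20), going from 12.1 CPM at E12.5 to 0.757 at P0. The subunits of CAF-1, Chaf1a and Chaf1b, stood at -2.39 ± 0.15 and -1.98 ± 0.15, and Slbp, which binds the histone stem-loop, at -1.44 ± 0.09. The 2 that rose were Lsm11 (1.95 ± 0.16) and Lsm10 (0.42 ± 0.12), the U7 snRNP proteins of histone mRNA cleavage. General chaperones split evenly, with 3 of 8 higher and 3 lower: Nap1l5 (3.42 ± 0.18), Nap1l3 (2.52 ± 0.22) and Nap1l2 (1.41 ± 0.23) rose, and Nap1l1 (-1.77 ± 0.32) and the FACT subunits Supt16 (-1.10 ± 0.20) and Ssrp1 (-0.84 ± 0.13) fell.

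**Figure D4:**
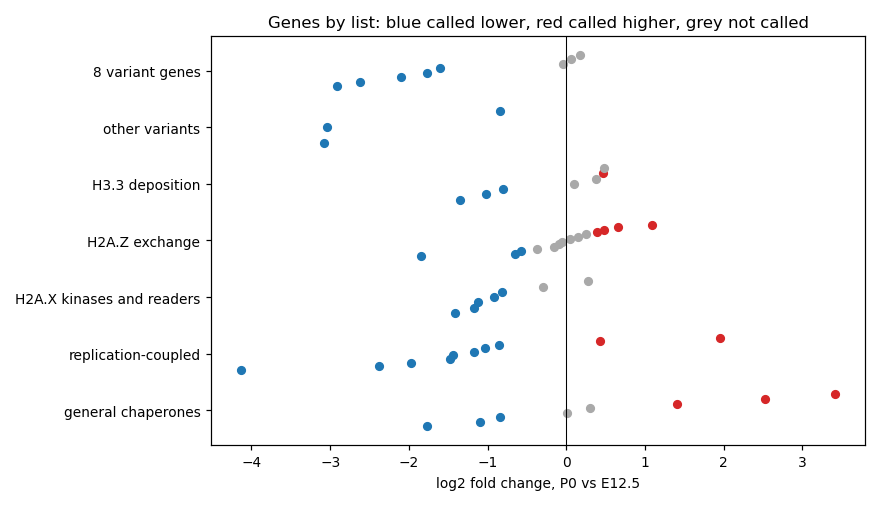
Log2 fold change from E12.5 to P0 (x axis) of each gene, grouped by list (y axis), with blue for genes called lower, red for genes called higher and gray for the rest. The replication-coupled list holds 8 blue and 2 red points, while H2A.Z exchange genes lie on both sides of 0.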

How the data were processed

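The authors deposited whole-number footprint counts per gene, 1 column per library, neither scaled nor merged. By their methods section they trimmed adapters, collapsed duplicate reads, filtered tRNA, rRNA and snoRNA reads with Bowtie 2, and aligned the remainder with STAR (2.7.0 in the submitters' processing notes) to GENCODE M12, keeping reads that match several places. Isoform abundances by DeepShape-prime, summed to genes with tximport, are described there; whether this table comes from them, and how reads shared by several genes were counted in it, is not given in the sources used here. Of 22373 identifiers, 22274 matched a symbol. The table names no build, so gene coordinates are not given; promoter windows come from RefSeq (GRCm38.p6).

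Genes with at least 32 footprints in a stage (13484) were tested with limma-voom (limma 3.58.1, TMM from edgeR 4.0.16, R 4.3.3) over all 10 libraries. A gene was called at a two-sided Benjamini-Hochberg adjusted p under 0.05 over all genes and a fold of at least 1.25. Shares of paralogs were tested by exact permutation over libraries of F on the logit share. Scripts were tested on simulated data. edgeR's quasi-likelihood test and DESeq2 1.42.0 were alternatives. P-values measure the spread between pools of the same stage. In limma-voom on all 10 libraries that spread was estimated per gene over all stages together. The wider spread at P0 therefore had no estimate of its own. The rule for the 8 genes uses symbols only, but it and the lists were chosen with earlier results of these data known. All 8 variant genes are named, with the largest called rise and fall of each list and the 2 genes most correlated with each variant gene.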

Additional observations from a re-analysis of the deposited data

How the results depend on the processing

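The 2 P0 libraries differed most, by a chi-square of 50.7 per degree of freedom against 5.8 to 25.8 at the other stages, so that every pair differed by more than counting error. Leaving out each library in turn, the number of the 8 genes called was 3 to 5 from E14 to E15.5 (3 without either E15.5 library) and 0 to 2 from E15.5 to E17 (0 without any 1 of the libraries of E15.5 or E17, with an unadjusted p under 0.05 for 1 to 3 genes; 2, with H2afz added, without either P0 library). Fits on only the 2 stages compared called 2 of the 8 genes from E15.5 to E17, against 3267 of all 12488 genes tested there. From E17 to P0 such a fit called 0 of all genes, with 5 of the 8 at an unadjusted p under 0.05. By edgeR and DESeq2, 5 of the 8 were called there. Total counts in place of TMM put the all-gene median of P0 against E12.5 at 0.51 instead of -0.01. In that comparison all 8 genes were then called, 3 of them higher, while 8949 of all 13484 genes were called in either direction. The F test also called all 8 with total counts. That scaling raised the share of higher genes among all genes called from 77.9% to 90.9%, 45.6% to 72.7% and 46.1% to 63.3% at the steps ending at E14, E15.5 and P0. That scaling also ended the calls of H2afy (-0.09) and H1f0 (-0.17) from E14 to E15.5 and called H2afy2 (0.42) and H3f3a (0.45) higher.

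Fitted values that changed sign were not called by limma-voom, except H3f3a with total counts from E12.5 to P0. With total counts H2afz (0.0047) and H2afy2 (0.049) changed sign from E12.5 to E14, H3f3a (0.011) and H3f3b (0.0062) from E15.5 to E17, H2afy2 (0.023) from E17 to P0 and H3f3a (0.49) from E12.5 to P0. Leaving out each library in turn, values from E12.5 to E14 ran from -0.15 to 0.052 for H2afz, -0.040 to 0.023 for H2afy2, -0.068 to 0.20 for H3f3a and -0.057 to 0.092 for H1f0. They ran from -0.12 to 0.012 for H3f3a from E15.5 to E17 and from -0.36 to 0.11 for H3f3b from E17 to P0, and from E12.5 to P0 they ran up to 0.12 for H3f3a and from -0.040 to 0.42 for H3f3b. H3f3a from E12.5 was at 0.0085 with sample quality weights and at 0.17 with E17 in place of P0, an alternative chosen after seeing the data, as were the mean per Hist gene and leaving out both P0 libraries. The cause was not tested.

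Replicate differences of 2 stages correlated between -0.64 and 0.43, over 0.1 in 5 of 10 pairs of stages and below 0 between E12.5 and every other stage. Whether replicate numbers pair the libraries cannot be told from these values. With the replicate block, the exact permutation p of the H2afv share was 0.0333 and that of the H2afy2 share 0.00833, and the calls over all genes numbered 4, 4562, 819, 2124 and 8017 for the 5 comparisons, against 86, 4868, 1219, 2767 and 8371 without it. With 1 library left out, the exact permutation p ran from 0.0254 to 0.174 for the H2afv share, 0.0476 to 0.560 for the H3f3b share and 0.00106 to 0.00212 for the H2afy2 share. Counts over all genes with 1 library left out ran from 0 to 1062, 2739 to 6329, 0 to 2863, 552 to 4419 and 6920 to 9185. With the mean per Hist gene, class shares at E12.5 and P0 were 49.6% and 87.8% for H3.3, 59.6% and 68.6% for H2A variants, and 15.54% and 22.0% for H1f0.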

Other observations

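Over the 10 libraries, the log2 CPM of H2afz, H2afv, H2afx, H2afy and H1f0 correlated with each other at r = 0.926 to 0.991, and those of H3f3a and H3f3b at r = 0.877. The libraries share stage, so these are descriptions. Among the 4486 genes averaging 500 counts or more per library, the genes most like each variant gene were Smc4 (r = 0.994) and Plk1 (0.993) for H2afz, Bbx (0.990) and Ccna2 (0.989) for H2afv, Flna (0.998) and H2afj (0.998) for H2afx, and Knstrn (0.998) and Spc25 (0.995) for H2afy. For H1f0 they were Kmt5a (0.991) and Sem1 (0.991), for H2afy2 Mdm4 (0.973) and Slc25a14 (0.947), for H3f3a Zbtb12 (0.945) and Txn2 (0.918), and for H3f3b Ppdpf (0.959) and Jund (0.953).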
